A study of Arabidopsis thaliana with 8 samples.

Results

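The early light-induced proteins and the one-helix and LIL3 proteins of Arabidopsis were followed at the transcript level across every library of the series. Entries were taken by locus, a rule that itself uses no measured value. Of 7 loci listed, 6 had an entry of their own among the 26987 gene entries of each deposited table: ELIP1 (AT3G22840), ELIP2 (AT4G14690), OHP1 (AT5G02120), OHP2 (AT1G34000), LIL3:1 (AT4G17600) and LIL3:2 (AT5G47110). The stress-enhanced protein gene AT4G34190 shares the symbol SEP1 with the floral regulator SEPALLATA1 (AT5G15800), and the deposited table joins both loci in 1 entry, so that entry is described apart from the 6 genes.

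These proteins are relatives of the light-harvesting chlorophyll a/b-binding antenna of the thylakoid membrane, but are not known to harvest light. ELIP1 and ELIP2 accumulate for a short time when etiolated seedlings are first lit or when leaves meet strong light, and are held to bind chlorophyll that would otherwise generate reactive oxygen. OHP1 and OHP2 have a single membrane helix and act together with HCF244 in the assembly of photosystem II reaction centres. The LIL3 proteins bind and stabilise geranylgeranyl reductase (CHLP), which makes the phytyl chain of chlorophyll, and have been found with protochlorophyllide oxidoreductase.

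RNA came from whole seedlings of the Col-0 ecotype in 8 libraries, with 1 library per condition. DAYi seedlings carry a dexamethasone-inducible RNAi against DAY and were grown on plates with the solvent EtOH (DAYi EtOH) or with 1 µM DEX (DAYi DEX), and Col-0 and bri1-116, a null allele of the brassinosteroid receptor gene BRI1, were grown as mock. Seedlings were grown for 5 days in the dark or for 9 days in the light under long days, so light and age cannot be told apart. The DAYi titles carry a number that differs between EtOH and DEX and that the labels do not explain, so whether both came from the same transgenic line is not known, and the title of the light bri1-116 sample begins with "new".

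With no replicates, no test between conditions was possible and every difference below compares single libraries. A gene was counted as higher or lower when its FPKM (fragments per kilobase of transcript, scaled to the mapped fragments of the library) differed more than 2-fold and was above 0 in both libraries, and log2 ratios were taken of FPKM + 1, which understates the differences of low genes. From the spacing of low values, 1 FPKM on 1 kb of transcript stood for about 42.8 to 109 fragments per library. In the dark, the Col-0 and bri1-116 titles conflict with the genotype field of the same samples, and the titles were followed. Across all entries the library titled Col-0 had a Spearman rho of 0.991 with dark DAYi EtOH, against 0.962 for the library titled bri1-116. The DAY transcript was at 56.9 FPKM in light DAYi EtOH and 6.88 in light DAYi DEX. In the dark it was at 13.4 in DAYi EtOH but at 34.8 in the library labelled DEX, which is therefore called so throughout. Dark DAY was also at 13.8 FPKM in the library titled Col-0 and at 32.8 in that titled bri1-116. Over all entries the dark library titled Col-0 had a rho of 0.956 with the library labelled DEX. BRI1 transcript was at 70.6 and 42.5 FPKM in the dark libraries titled Col-0 and bri1-116, and at 58.1 and 33.3 in the light ones.

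The upstream sequences of the ELIP and OHP genes are shown because these genes share most of their pattern over the libraries, and because the bZIP factor HY5, known to act on ELIP genes, binds motifs with an ACGT core such as the G-box. Each run holds the 250 bases before the gene start of the RefSeq annotation of TAIR10.1, 5′ to 3′ on the strand of the gene, with the G-box CACGTG in capitals. The windows lie at chr3:8085670-8085919 (minus strand, ELIP1), chr4:8417992-8418241 (plus strand, ELIP2), chr5:418841-419090 (plus strand, OHP1) and chr1:12358967-12359216 (minus strand, OHP2).
ELIP1: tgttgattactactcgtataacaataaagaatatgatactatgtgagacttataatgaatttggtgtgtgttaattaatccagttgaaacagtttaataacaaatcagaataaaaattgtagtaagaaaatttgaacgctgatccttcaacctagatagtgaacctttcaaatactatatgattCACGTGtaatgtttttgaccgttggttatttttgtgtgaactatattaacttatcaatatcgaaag
ELIP2: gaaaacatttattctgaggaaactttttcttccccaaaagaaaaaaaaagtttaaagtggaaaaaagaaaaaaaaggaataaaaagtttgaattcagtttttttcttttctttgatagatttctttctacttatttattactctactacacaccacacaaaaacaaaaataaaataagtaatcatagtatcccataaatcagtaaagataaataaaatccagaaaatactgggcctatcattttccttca
OHP1: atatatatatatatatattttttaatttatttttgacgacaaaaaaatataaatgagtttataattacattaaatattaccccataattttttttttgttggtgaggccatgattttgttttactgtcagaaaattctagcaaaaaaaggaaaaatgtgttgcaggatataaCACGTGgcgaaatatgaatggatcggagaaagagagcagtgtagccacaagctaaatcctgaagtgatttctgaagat
OHP2: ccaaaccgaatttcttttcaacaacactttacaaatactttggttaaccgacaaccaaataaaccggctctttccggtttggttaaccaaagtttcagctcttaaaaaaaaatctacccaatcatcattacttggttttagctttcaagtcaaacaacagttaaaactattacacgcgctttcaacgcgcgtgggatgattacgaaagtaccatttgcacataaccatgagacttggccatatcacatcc
A G-box started 66 bases before the start of ELIP1 and 78 bases before that of OHP1. CACGTG was not in the windows of ELIP2, OHP2, LIL3:1 or LIL3:2, and it was in 6.49% of 27443 windows of the same length before protein-coding genes. The bare core ACGT was also in the window of LIL3:2, 32 bases before the start, against 44.1% of all windows. Of the other motifs searched on both strands, CCAATC (in 10.2% of all windows) was found before OHP2, GATAAG (12.3%) before ELIP1, and AGATATC (2.85%) before none of the 6 genes. These are matches of letters and not shown to be bound sites.

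ELIP1 and ELIP2, like LIL3:1 and LIL3:2, are paralogs whose reads could be shared, so their sequences were compared. Coding sequences of ELIP1 and ELIP2 were identical at 78.9% of 564 aligned bases, and those of LIL3:1 and LIL3:2 at 80.3% of 762. The longest run that the LIL3:1 and LIL3:2 mRNAs share has 40 bases and lies in exon 1 of both. Whether any read was assigned to the wrong gene of the pair was not examined. The shared run lies at chr4:9804081-9804120 on the plus strand (LIL3:1) and at chr5:19134886-19134925 on the minus strand (LIL3:2).
LIL3 shared run: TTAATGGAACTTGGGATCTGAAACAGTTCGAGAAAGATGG
For ELIP1 and ELIP2 the longest shared run was 26 bases, and no window of 50 bases was shared by either pair. OHP1 and OHP2 were 66.2% identical over 325 aligned coding bases with no shared run above 10 bases.

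The deposited TAIR10 coordinates place ELIP1 at chr3:8084447-8085560, ELIP2 at chr4:8418283-8419263, LIL3:1 at chr4:9803705-9804872 and LIL3:2 at chr5:19133986-19135317. The deposited intervals of OHP1 (chr5:419091-422032) and OHP2 (chr1:12355568-12358966) also cover a neighbour on the opposite strand. OHP1 overlaps AT5G02130 by 116 bases and OHP2 overlaps AT1G33990 by 122 bases. Whether counting used strand is not stated, so reads in these overlaps cannot be told apart. AT5G02130 was at 10.6 to 15.2 FPKM and AT1G33990 at 42.6 to 63.7 FPKM over the 8 libraries, a narrower range than that of either OHP gene.

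**Figure D1:**
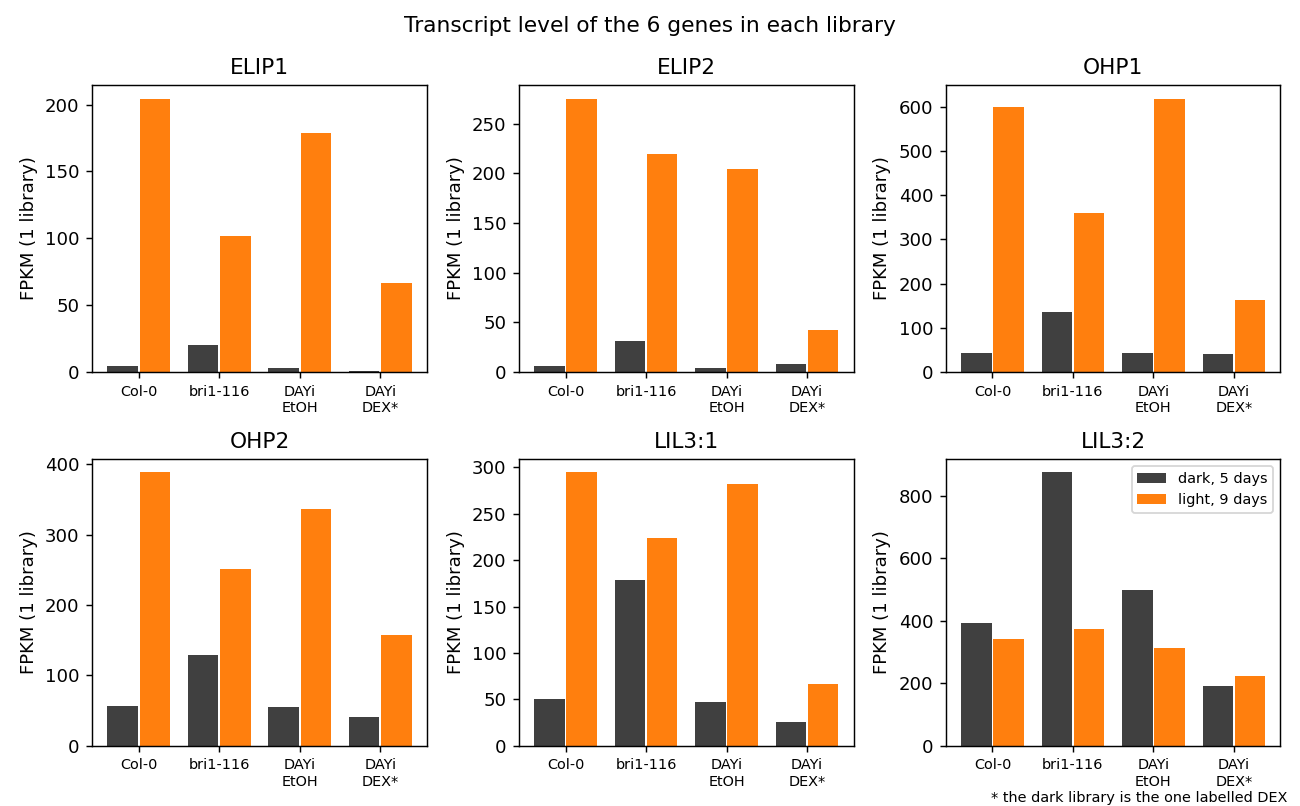
FPKM of the 6 genes in each of the 8 libraries (1 library per bar, linear axis from 0, separate scale for each gene), with dark libraries in grey and light libraries in orange. ELIP1, ELIP2, OHP1, OHP2 and LIL3:1 are higher in all light than in the dark control libraries, whereas LIL3:2 is highest in the dark library titled bri1-116 at 874 FPKM.

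ELIP1 transcript was low in the dark and high in the light. In the dark it was at 4.51 FPKM in Col-0, 20.03 in bri1-116, 2.77 in DAYi EtOH and 0.917 in the DAYi library labelled DEX. In the light it was at 204 FPKM in Col-0, 101 in bri1-116, 179 in DAYi EtOH and 66.5 in DAYi DEX. All 4 light libraries were above all 4 dark ones, and bri1-116 was the highest in the dark but below both Col-0 and DAYi EtOH in the light. The level was 4.45-fold higher in bri1-116 than in Col-0 in the dark (95% exact binomial interval 3.85 to 5.16 on estimated fragments, counting error only) and 2.02-fold lower in the light (interval 1.95 to 2.08). That last value lies at the 2-fold limit, with a log2 ratio of -1.0, and was -0.81 against DAYi EtOH as the control. With DEX, ELIP1 was 2.69-fold lower than with EtOH in the light. In the dark it was 3.02-fold lower in the library labelled DEX (interval 2.26 to 4.11), from about 57 estimated fragments against 238.

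ELIP2 was also low in the dark and high in the light, with another order of libraries than ELIP1. In the dark it was at 6.45 FPKM in Col-0, 31.2 in bri1-116, 4.49 in DAYi EtOH and 7.64 in the library labelled DEX. In the light it was at 275 FPKM in Col-0, 219 in bri1-116, 205 in DAYi EtOH and 42.8 in DAYi DEX. Light libraries were again all above dark ones, but the margin between the lowest light level and the highest dark level, those of light DAYi DEX and dark bri1-116, was smaller than for ELIP1. In the light bri1-116 lay above DAYi EtOH for ELIP2 and below it for ELIP1. ELIP2 was 4.83-fold higher in dark bri1-116 than in dark Col-0, and its light level differed less (log2 ratio -0.33). With the libraries rescaled to the same sum of FPKM that light value became 0.07, so no direction is given. With DEX in the light ELIP2 was 4.79-fold lower, the widest difference of the 6 genes in that comparison. Among dark DAYi seedlings, in the library labelled DEX it was 1.70-fold above EtOH (interval 1.47 to 1.97), which is opposite in direction to ELIP1 and within the 2-fold limit.

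OHP1, which pairs with OHP2, ranged from 41.3 to 618 FPKM. In the dark OHP1 was at 43.9 FPKM in Col-0, 136 in bri1-116, 42.5 in DAYi EtOH and 41.3 in the library labelled DEX. In the light OHP1 was at 599 FPKM in Col-0, 359 in bri1-116, 618 in DAYi EtOH and 163 in DAYi DEX. Apart from bri1-116 the dark libraries lay within a few FPKM of each other, and light DAYi DEX was close to dark bri1-116. The OHP1 level was 3.10-fold higher in dark bri1-116 than in dark Col-0, 1.67-fold lower in light bri1-116 than in light Col-0, and 3.78-fold lower with DEX in the light.

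OHP2, the partner of OHP1, was likewise higher in all light libraries than in all dark ones. In the dark OHP2 was at 56.3 FPKM in Col-0, 129 in bri1-116, 54.6 in DAYi EtOH and 40.7 in the library labelled DEX. In the light OHP2 was at 388 FPKM in Col-0, 252 in bri1-116, 337 in DAYi EtOH and 158 in DAYi DEX. The order of the libraries was that of OHP1 but for the top, with light Col-0 above light DAYi EtOH for OHP2 and the reverse for OHP1. OHP2 was 2.29-fold higher in dark bri1-116 and 2.13-fold lower with DEX in the light. After rescaling the libraries to the same sum, the latter log2 ratio went from -1.09 to -0.77, within 2-fold.

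LIL3:1 was also higher in the light, but bri1-116 nearly reached its light level in the dark. In the dark LIL3:1 was at 50.2 FPKM in Col-0, 179 in bri1-116, 47.2 in DAYi EtOH and 25.4 in the library labelled DEX. In the light LIL3:1 was at 295 FPKM in Col-0, 224 in bri1-116, 282 in DAYi EtOH and 66.1 in DAYi DEX. Light DAYi DEX thus lay below dark bri1-116, so light and dark libraries overlapped. The level was 3.57-fold higher in dark bri1-116 than in dark Col-0 and 4.27-fold lower with DEX in the light. Among dark DAYi seedlings, in the library labelled DEX it was 1.86-fold lower, within the 2-fold limit.

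LIL3:2 had a different pattern, with the highest level of the 6 genes in every dark library. In the dark LIL3:2 was at 394 FPKM in Col-0, 874 in bri1-116, 499 in DAYi EtOH and 190 in the library labelled DEX. In the light LIL3:2 was at 342 FPKM in Col-0, 374 in bri1-116, 312 in DAYi EtOH and 224 in DAYi DEX. Its light libraries lay inside the range of its dark ones, and the lowest levels were in the dark library with the DEX label and, in the light, in DAYi DEX. LIL3:2 was 2.22-fold higher in dark bri1-116 than in dark Col-0, with a log2 ratio of 1.15 that became 0.81, within 2-fold, when dark DAYi EtOH served as the control. It was 2.63-fold lower in the DAYi library labelled DEX in the dark and 1.39-fold lower with DEX in the light.

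The joint SEP1 entry was at 59.5, 195, 67.2 and 53.1 FPKM in dark Col-0, bri1-116, DAYi EtOH and the library labelled DEX, and at 501, 278, 415 and 136 FPKM in the light ones. Its deposited interval lies on chromosome 5 at the SEPALLATA1 locus, whereas AT4G34190 is on chromosome 4. The share of each locus in these values cannot be told apart, and the entry is not counted below.

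**Figure D2:**
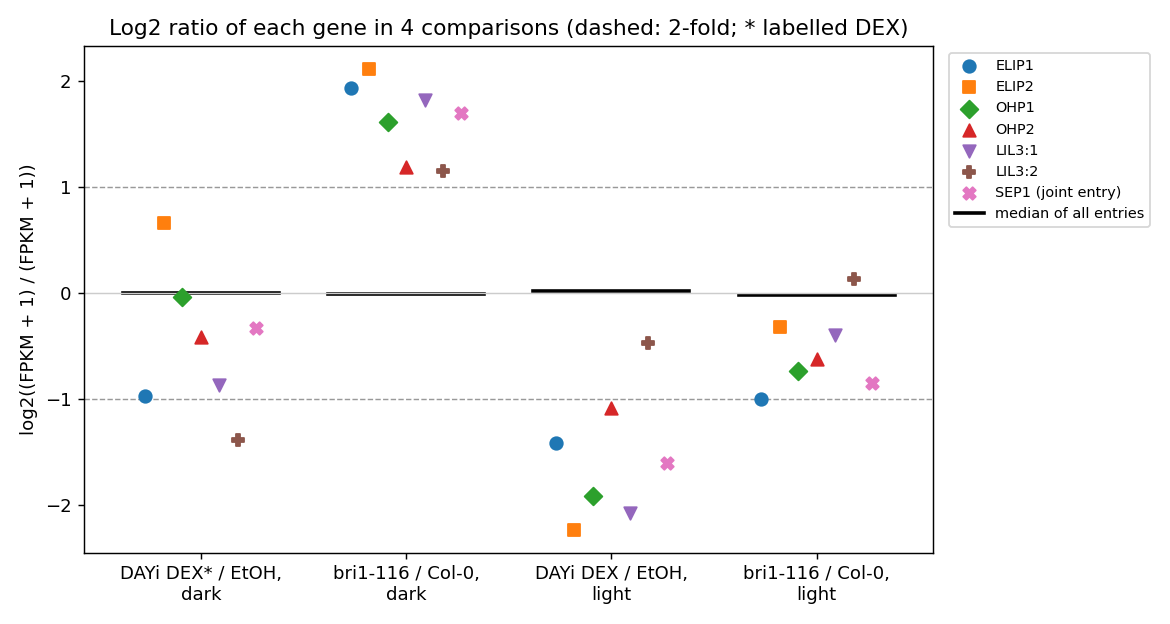
Log2 ratio of FPKM + 1 of each gene (coloured symbols) in 4 comparisons of 1 library with 1 library, with the median of all entries (black bars) and the 2-fold limits (dashed). All 6 genes lie above 1 for dark bri1-116, 5 of 6 lie below -1 for light DAYi DEX, and the library labelled DEX has, in the dark, genes on both sides of 0.

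Among the 4 comparisons of genotype or treatment, the median of the 6 genes lay furthest from 0 in dark bri1-116 and in light DAYi DEX. In dark bri1-116 all 6 were higher than in Col-0 and none was lower, where 11.2% of all entries were higher and 9.01% lower, and their median log2 ratio was 1.71 against -0.01 for all entries. In light DAYi DEX 5 of 6 were lower than with EtOH and none was higher, where 16.3% of all entries were lower and 12.1% higher, with medians of -1.66 and 0.02. LIL3:2 was the exception. Among dark DAYi seedlings, in the library labelled DEX 2 of 6 were lower, ELIP1 and LIL3:2, and none was higher, where 12.2% of all entries were lower and 9.36% higher, with medians of -0.64 and 0.00. In light bri1-116 1 of 6 was lower, ELIP1, and none was higher, where 7.82% of all entries were lower and 6.52% higher, with medians of -0.51 and -0.03. The dark bri1-116 result reverses if the genotype field and not the title names the dark libraries.

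Green tissue markers moved with these values. The summed FPKM of 5 mesophyll genes (the Rubisco small subunits RBCS1A, RBCS2B and RBCS3B, Rubisco activase RCA and GAPB of the Calvin cycle) was 3386 in dark Col-0, 9035 in dark bri1-116, 4072 in dark DAYi EtOH and 1915 in the DAYi library labelled DEX in the dark. In the light the sum was 49431 in Col-0, 25719 in bri1-116, 47522 in DAYi EtOH and 10764 in DAYi DEX. All 5 were higher in dark bri1-116 and all 5 were lower in light DAYi DEX, although the RBCS copies are near-identical and their single values uncertain. In light bri1-116 2 of 5 were lower, where 7.82% of all entries were. In the library labelled DEX in the dark 2 of 5 were lower, where 12.2% of all entries were, with RCA at 167 against 175 FPKM. In whole seedlings, fewer green cells and less RNA per green cell cannot be told apart, and the part of either in the results above was not tested. Summed FPKM of 11 seed storage and oil body genes was 24.1 in light DAYi DEX and 0.547 to 0.713 in the other light libraries, and 4.00 to 15.8 in the dark ones. Of these 11, 7 reached 1 FPKM in light DAYi DEX and none did in the other light libraries, where 4 to 8 were listed at 0. For 9 root genes the sum was 443 in dark Col-0, 99.3 in dark bri1-116, 651 in dark DAYi EtOH and 205 in the DAYi library labelled DEX in the dark, and 90.6 to 150.2 in the light. These sums were carried by the endodermal genes CASP1 to CASP5, all 5 of which were lower in both dark comparisons. Of all entries, 12.2% were lower in the DEX-labelled library and 9.01% in dark bri1-116. Of the 4 root hair genes, 4 were higher in the DEX-labelled library and 3 in bri1-116, where 9.36% and 11.2% of all entries were. EXPA18 was at 12.4 FPKM against 0.731 and at 2.75 against 0.525. All 4 were below 1 FPKM in dark Col-0 and dark DAYi EtOH, so their ratios rest on values near the floor. The part of these markers in the results was not tested.

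The control libraries of the same light condition gave like values for most of the 6 genes. Between DAYi EtOH and Col-0 none of the 6 was more than 2-fold apart in the dark, where 2.19% of entries were higher and 2.22% lower, nor in the light, where 1.96% were higher and 2.18% lower. The widest gap was that of ELIP1 in the dark, with 2.77 against 4.51 FPKM. The libraries of these pairs come from separate tables that may have been normalized separately, and the same holds for light against dark.

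Between light and dark libraries of the same genotype, ELIP1 had the highest ratio of the 6 genes in all pairs but bri1-116, where ELIP2 did. It was 45.4-fold higher in light than in dark Col-0, 64.5-fold in DAYi EtOH, 72.5-fold in light DAYi DEX over the dark library labelled DEX, and 5.06-fold in bri1-116. ELIP2 was 42.6-fold higher in light Col-0, 45.6-fold in DAYi EtOH, 5.60-fold in the pair labelled DEX and 7.03-fold in bri1-116. The values of Col-0 and bri1-116 rest on the dark titles. With the dark libraries exchanged, the ELIP1 log2 ratio went from 5.22 to 3.29 in Col-0 and from 2.28 to 4.22 in bri1-116, and that of ELIP2 became 3.10 and 4.88, so bri1-116 then had the wider difference for both. In the pair labelled DEX the paralogs stood apart. Its light library has the lowest light level of both ELIP1 and ELIP2. Its dark library has the lowest ELIP1 level, at 0.917 FPKM. ELIP2 was there at 7.64 FPKM, above dark DAYi EtOH (4.49) and dark Col-0 (6.45). In Col-0, DAYi EtOH and the pair labelled DEX 5 of 6 genes were higher in the light, where 22.9, 21.2 and 14.9% of all entries were, and none was lower, where 19.1, 19.8 and 13.2% were. In bri1-116 3 were higher, where 15.3% of all entries were, and LIL3:2 was lower, where 12.7% were. LIL3:2 was the one gene that was not higher in any of the 4 genotype and treatment pairs. In DAYi EtOH its light to dark log2 ratio was -0.67, and -1.16 after the libraries were rescaled to the same sum.

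**Figure D3:**
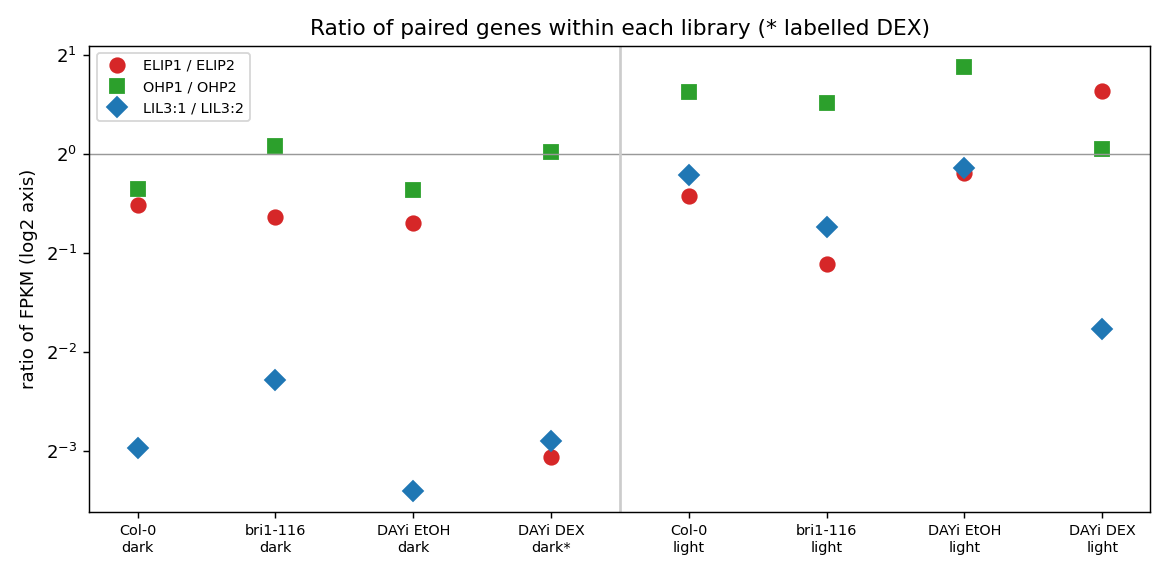
Ratio of FPKM of ELIP1 to ELIP2, OHP1 to OHP2 and LIL3:1 to LIL3:2 within each library (log2 axis, 1 point per library). The LIL3 ratio is 0.0947 to 0.205 in the dark and 0.295 to 0.904 in the light, and the ELIP ratio stands at 0.12 in the dark library with the DEX label and at 1.55 in light DAYi DEX.

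Ratios within a library do not depend on its scaling. The ratio of ELIP1 to ELIP2 was 0.617 to 0.698 in 3 dark libraries and 0.12 in the library labelled DEX. In the light it was 0.743 in Col-0, 0.463 in bri1-116, 0.873 in DAYi EtOH and 1.55 in DAYi DEX. ELIP1 was thus below ELIP2 in every library but light DAYi DEX. The ratio of LIL3:1 to LIL3:2 was 0.0947 to 0.205 in the dark, 0.863 and 0.904 in light Col-0 and DAYi EtOH, 0.599 in light bri1-116 and 0.295 in light DAYi DEX. LIL3:2 therefore had the higher FPKM of the pair in all 8 libraries, by the least in the light controls. Such a ratio also depends on the transcript lengths used. The deposited interval of LIL3:1 holds 1001 exon bases of a reference mRNA of 1620, and that of LIL3:2 holds 1088 of 1185. Their part in the small gap in the light controls was not tested. The ratio of OHP1 to OHP2 was 0.779 to 1.06 in the dark, 1.43 to 1.84 in 3 light libraries and 1.04 in light DAYi DEX.

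The genes with the most similar patterns were searched among 14362 entries that reached 10 FPKM in a library, by Pearson's r of log2(FPKM + 1) over 8 libraries that share their light and dark contrast. For ELIP1 the nearest was CAB2 (LHCB1.1), an antenna gene of photosystem II, with r of 0.999, followed by AT4G28740 and HDS, an enzyme of plastid isoprenoid synthesis. ELIP2 was nearest to CLPP3, a subunit of the plastid Clp protease (0.996), then to AT4G24830 and STV1, a cytosolic ribosomal protein. OHP1 was nearest to ATPD, the delta subunit of the chloroplast ATP synthase (0.999), then to LHCA5 and PDX1L4. OHP2 was nearest to AT3G12345, a hypothetical protein (0.999), then to AT5G49910, a plastid HSP70, and AT2G18330. LIL3:1 was nearest to FAD7, a plastid fatty acid desaturase (0.999), then to AT5G13410 and AT1G14810. For LIL3:2 the best value was 0.959, with AT1G22430, followed by AT2G43445 and AT5G25475. Between the 6 genes r was 0.992 for OHP1 and OHP2, 0.957 for ELIP1 and ELIP2 and 0.351 for LIL3:1 and LIL3:2. Many other entries lay closer, as OHP2 ranked 44 among entries by r with OHP1, and ELIP2 ranked 506 by r with ELIP1. The r of ELIP1 with OHP2 was 0.990, above its r with ELIP2.

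**Figure D4:**
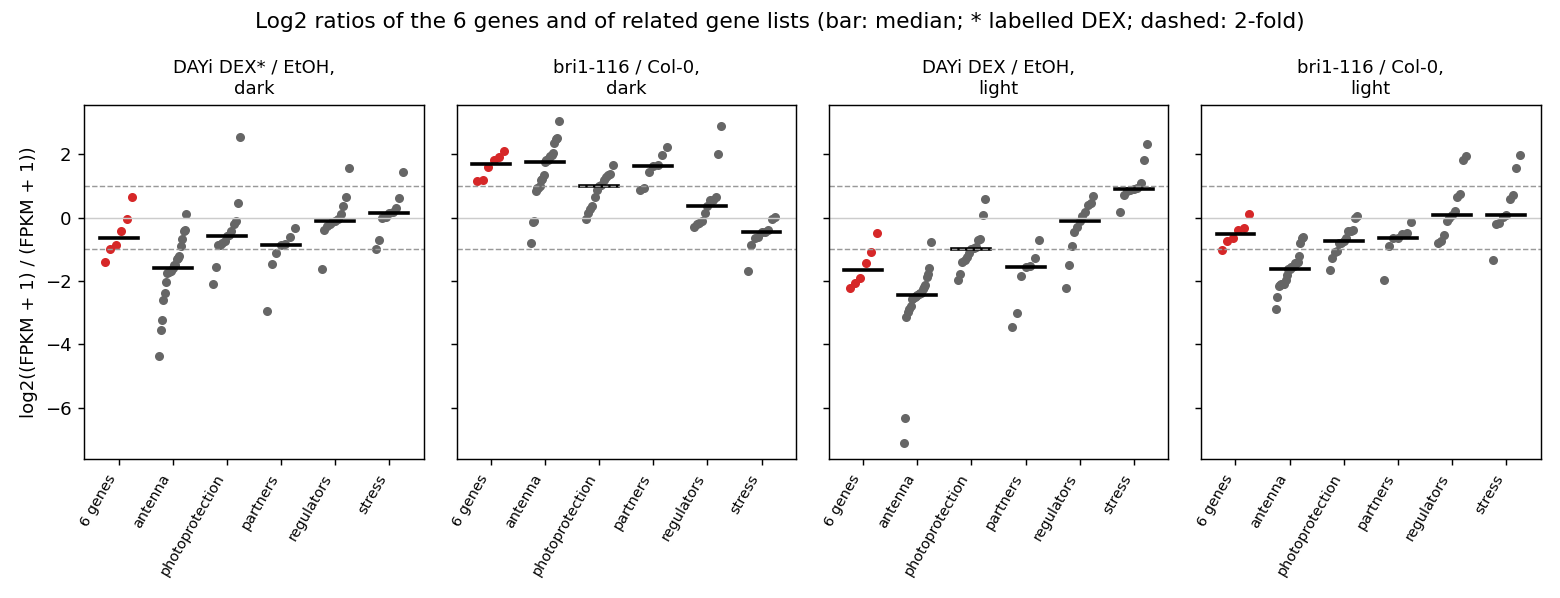
Log2 ratio of FPKM + 1 in 4 comparisons for the 6 genes (red) and for genes of 5 related lists (grey, 1 point per gene), with the list median as a black bar and the 2-fold limits dashed. The antenna genes lie further below 0 than the 6 genes in both light comparisons, with medians of -2.43 and -1.61 against -1.66 and -0.51.

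The antenna, to which these proteins are related, differed in the direction of the median of the 6 genes in all 4 comparisons, with a median further from 0 in each. Of 21 LHCA and LHCB genes, 14 were higher and none lower in dark bri1-116 (median log2 ratio 1.76), where 11.2% of all entries were higher. In light DAYi DEX 20 were lower (median -2.43), where 16.3% of all entries were. In light bri1-116 18 were lower (-1.61), where 7.82% of all entries were. In the DAYi library labelled DEX in the dark 16 were lower (-1.58), where 12.2% of all entries were. LHCB1.1, with the widest difference of the list in dark bri1-116, was at 156 FPKM against 17.8 in dark Col-0. LHCB2.3, also far beyond the list median, was at 25.0 FPKM in light DAYi DEX against 2076 with EtOH. LHCB2.1 and LHCB2.2 differed less there, at 772 against 3334 and 410 against 3051 FPKM. LHCB1 copies are near-identical, so the values of single LHCB1 genes are uncertain. In light bri1-116 the antenna median stood well below that of the 6 genes, at -1.61 against -0.51.

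Known partners of OHP and LIL3 were HCF244, HCF136, CHLP, the chlorophyll synthase CHLG and the 3 protochlorophyllide oxidoreductases. Of these 7, 5 were higher in dark bri1-116 (median log2 ratio 1.64), where 11.2% of all entries were. In light DAYi DEX 7 were lower (-1.55), where 16.3% of all entries were. These 7 include PORA, which was near 0 in both libraries at 0.0471 FPKM against 0.688. In the DAYi library labelled DEX in the dark 3 were lower (-0.86), where 12.2% of all entries were. In light bri1-116 1 was lower (-0.64), where 7.82% of all entries were. PORA, active in etiolated tissue, was at 1586 FPKM in dark bri1-116 against 402 in Col-0, and among dark DAYi seedlings at 62.8 FPKM with the DEX label against 488 with EtOH. PORC, active in green tissue, was at 34.2 FPKM in light DAYi DEX against 282 in EtOH, and PORB was at 10.09 against 121. PORC was also the partner that was lower in light bri1-116, at 73.0 against 289 FPKM, and HCF244 was at 116 against 214 FPKM, within 2-fold.

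Other photoprotection genes had medians of the same sign as the antenna in all 4 comparisons. Of 13, 7 were higher in dark bri1-116 (median 1.00), where 11.2% of all entries were. In light DAYi DEX 7 were lower (-0.98), where 16.3% of all entries were. In light bri1-116 4 were lower (-0.73), where 7.82% of all entries were. The DAYi library labelled DEX in the dark had 2 lower and 1 higher (-0.58). There 12.2% of all entries were lower and 9.36% higher, shares near these counts. PSBS, which senses lumen acidification in energy-dependent quenching, was at 725 FPKM in light DAYi DEX against 2830 with EtOH. In the dark it was at 31.1 FPKM in the library labelled DEX against 137 with EtOH. VDE, violaxanthin de-epoxidase of the xanthophyll cycle, was the one that was higher there, at 80.3 FPKM against 12.8.

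Regulators known for ELIP genes gave a mixed picture, in a list that also holds CHS, an enzyme gene and not a regulator. Of 11 genes, which include the light-regulated chalcone synthase gene CHS, 2 were lower in light DAYi DEX, the chloroplast development factors GLK1 (18.9 against 55.0 FPKM) and GLK2 (26.5 against 127), where 16.3% of all entries were lower, a share near 2 of 11. In light bri1-116 2 were higher, HY5 (71.1 against 19.5 FPKM) and its homologue HYH (342 against 86.7), where 6.52% of all entries were higher, while ELIP1 was lower. In dark bri1-116 2 were higher, HYH (74.0 against 17.7 FPKM) and CHS (18.6 against 1.60), where 11.2% of all entries were higher. Among dark DAYi seedlings, in the library labelled DEX 1 was higher, RUP1, a repressor of UVR8 signalling, at 14.2 FPKM against 4.18, and CHS was lower, at 0.0775 FPKM against 2.31, where 9.36% of all entries were higher and 12.2% lower.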

How the data were processed

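Whole-seedling mRNA libraries were prepared with a stranded kit, and by the submitters' processing notes the data were handled with CASAVA 1.8.2, TopHat2 2.0.13 and Cuffdiff 2.2.0 on TAIR10. Whether counting used strand is not given in the sources used here. The authors deposited FPKM per gene and library in 4 full tables, each comparing 2 libraries, and these FPKM were used as deposited. The tables' own fold change, p-value and q-value columns, and 12 sheets of selected genes, were not used. 1 line per table is not analysed here.

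Entries were matched by locus. Of entries with 1 locus, 26307 were found in the RefSeq annotation of TAIR10.1, which gave the sequences, and 26303 overlapped it on the same chromosome. File starts were converted to count from 1. 140 entries join several loci. Ratios of FPKM beyond 2-fold were counted, and log2 ratios used a pseudocount of 1. Background shares and medians are over entries above 0 in both libraries. Fragments were estimated from the spacing of low FPKM in 2672 intronless genes, with settings chosen after seeing the values, and 43.6 to 67.1% of values came out whole within 0.15 fragments. The estimate is therefore rough.

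Named genes were the 7 loci, for each the 3 entries of highest Pearson r, and in each of 10 gene lists the 2 with the largest log2 ratio at 10 FPKM or more. 91 of 93 listed genes had an entry of their own. The genes, lists and comparisons were chosen with earlier results of these data known. Alternatives were pseudocounts, fold limits, a low-value filter, 2 scalings, exchanged dark labels and, added after seeing the data, the joint SEP1 entry and the other control. Ratios and calls were tested on simulated data. Python 3.11.15, pandas 2.3.3, numpy 2.4.6, scipy 1.17.1, biopython 1.88 and matplotlib 3.10.9 were used.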

Additional observations from a re-analysis of the deposited data

Results flagged for a closer look

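ELIP1 stood out because the same contrast passed 2-fold in opposite directions under the 2 light conditions. The log2 ratio of bri1-116 against Col-0 was 1.93 for dark-grown and -1.0 for light-grown seedlings. The difference between these values was not tested, since each rests on 1 library against 1. The light value lies at the 2-fold limit, and the dark value changes sign if the dark libraries are exchanged. This pattern was not particular to ELIP1. Of 21 antenna genes, 14 were higher in dark bri1-116 (11.2% of all entries) and 18 were lower in light bri1-116 (7.82%). Dark and light log2 ratios were 3.06 and -1.42 for LHCB1.1 and 1.66 and -1.64 for PSBS, but -0.81 and -2.51 for LHCB1.5.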

How the results depend on the processing

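With 1 library per condition no replicate could be left out, and no spread is known. No paired analysis was possible because each condition has 1 library and no test was run. The choice that mattered most was the naming of the 2 dark libraries whose title and genotype field conflict. With these exchanged, bri1-116 against Col-0 in the dark reversed for ELIP1 (-1.93), ELIP2 (-2.11), OHP1 (-1.61), OHP2 (-1.18), LIL3:1 (-1.81) and LIL3:2 (-1.15), with a median of -1.71, 0 higher and 6 lower. Dark DAYi EtOH against Col-0 then had 5 lower and a median of -1.78, light against dark had 4 higher and 1 lower in Col-0 (median 1.85), and in bri1-116 5 higher and 0 lower (median 2.57).

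The count of 1 lower in light bri1-116 became 0 with a pseudocount of 10, with rescaling, with centring, with a fold limit of 4 and with DAYi EtOH as the control, and 3 with a limit of 1.5. The count of 2 lower in the dark library labelled DEX became 1 with a pseudocount of 10 or an FPKM minimum of 5, and 0 with a limit of 4, and 1 was higher with a limit of 1.5. A limit of 4 left 2 lower in light DAYi DEX and 2 higher in dark bri1-116. It also left 2 higher in light DAYi DEX over the dark library labelled DEX, and 0 lower in light against dark bri1-116. A limit of 1.5 gave 1 lower in dark DAYi EtOH against Col-0 and 1 lower in light against dark DAYi EtOH, as did rescaling for the latter. Counting the joint SEP1 entry brought the median of light against dark bri1-116 to 0.96. Rescaling to the same sum without AT2G01021, which took 1.51 to 28.6% of summed FPKM, shifted all log2 ratios by between -0.68 (light against dark Col-0) and 0.40 (light bri1-116 against Col-0). It changed the sign of ELIP2 in light bri1-116 from -0.33 to 0.07, and the other control gave 0.10. The other 238 values of counts and medians under the alternatives kept their side of the limit or stayed within 1.5 times the count. They include medians under other fold limits, which cannot move a median. Among values of single genes 480 kept their call, 24 lost one and 16 gained one, beside the 6 that reversed. Of the 480, 60 came from counting the joint SEP1 entry and 58 from the FPKM minimum. Neither of these can change the call of a single gene, so both tallies overstate how much was tried. The causes of these changes were not tested. Depth limits ELIP1 in the dark most, at about 57 to 238 estimated fragments in the DAYi libraries.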

Other observations

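Genes of the high light and oxidative stress response were counted in the same libraries. Of 9, 6 were higher and none lower in light DAYi DEX than with EtOH (median log2 ratio 0.92), where 12.1% of all entries were higher. The 6 include APX2, near 0 in both libraries at 0.208 FPKM against 0.0555, and HSFA2, low at 2.47 against 0.829. FER1, a plastid ferritin induced by iron and oxidative stress, was at 454 FPKM against 128, and BAP1, a gene induced by singlet oxygen, was at 11.015 against 1.38. ELIP1 and ELIP2 were both lower in that library. In light bri1-116 3 of 9 were higher, where 6.52% of all entries were. These were the chaperone HSP101 at 12.1 FPKM against 3.42, the heat stress factor HSFA2 at 4.77 against 0.460, and APX2, which was near 0 in both libraries at 0.103 against 0.0432. FER1 was lower at 91.2 FPKM against 229, where 7.82% of all entries were lower. In dark bri1-116 2 of 9 were lower, where 9.01% of all entries were, and none higher (median -0.46), with FER1 at 117 FPKM against 377. Among dark DAYi seedlings 1 was higher in the library labelled DEX, BAP1 at 14.1 FPKM against 4.57, and 1 was lower (median 0.15), where 9.36% of all entries were higher and 12.2% lower.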
